A study of Rattus norvegicus with 325 samples.

Results

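The genes described here are 6 members of a pathway that muscle fibres use after loss of their nerve supply, the class IIa histone deacetylases Hdac4, Hdac5 and Hdac9 and the stress genes Gadd45a, Gadd45b and Gadd45g. They were picked by symbol from the 17315 gene symbols counted in skeletal muscle of ageing rats. Of the 7 genes named for the pathway, Dach2 was not analysed here. Each of the other 6 had a single line of counts, and none was at 0 in any library. Male rats of the outbred Sprague Dawley strain were the source of every library, and the labels give muscle and age as the only differences between groups. The diaphragm (83 libraries), gastrocnemius (73), soleus (84) and tibialis anterior (85) were sampled at 7 ages from 6 to 27 months, the others being 9, 12, 18, 21 and 24 months, with 9 to 13 libraries in a group of 1 muscle and 1 age. Per the study's methods the rats of an age were killed on 1 day, so the effect of age cannot be told apart from that of the day. The libraries of a muscle are from separate animals, but the labels do not say which libraries of different muscles share an animal.

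Class IIa histone deacetylases shuttle between cytoplasm and nucleus and hold Mef2 transcription factors in check. In a fibre that has lost its nerve, Hdac4 is known to build up and to repress Dach2, a repressor of myogenin, after which myogenin drives genes of the acetylcholine receptor and of protein breakdown. Gadd45 proteins are small nuclear proteins induced by stress and growth arrest, and Gadd45a is known as a gene switched on by Hdac4 and by the transcription factor Atf4 in denervated and starved muscle.

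Depth per library ran from 17.6 to 85.3 M (mega) counts, the median being 31.9 M, and the muscles carried their defining markers. At 6 months the median of Myh7, the slow myosin, was 52940 CPM (each count relative to the library total, scaled within a muscle) in the soleus against 1801 in the tibialis anterior, while that of Myh4, a fast myosin, was 9.38 and 76450. A number in the labels puts all gastrocnemius libraries into a series of their own, and all 12-month libraries of the other muscles, with 1 library of 21 months in each, into another. The difference between the gastrocnemius and another muscle can therefore not be told apart from that between series. The libraries are bulk tissue, in which fewer cells of a type and less RNA per cell cannot be told apart.

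The promoters of Hdac4 and Gadd45a, the members that rose together, and of Hdac5, which did not rise, are shown for comparison. The sequences are from RefSeq on the rat build GRCr8 and run from 250 bases before the annotated start to 50 bases after it, each on the minus strand, at chr9:100197588-100197887 for Hdac4, chr4:97486750-97487049 for Gadd45a and chr10:87688005-87688304 for Hdac5. Capitals mark matches, on either strand, to the E-box CANNTG bound by myogenin and its relatives, to the CRE half-site TGACG, to the Atf4 core TGATGCAA and to a Mef2 site.
Hdac4: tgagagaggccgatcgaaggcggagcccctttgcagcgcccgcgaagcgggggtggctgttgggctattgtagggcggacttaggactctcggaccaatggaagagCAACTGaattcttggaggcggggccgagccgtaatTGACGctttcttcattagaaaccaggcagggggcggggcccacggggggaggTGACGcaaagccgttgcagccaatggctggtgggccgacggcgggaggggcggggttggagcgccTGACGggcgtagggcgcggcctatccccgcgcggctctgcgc
Gadd45a: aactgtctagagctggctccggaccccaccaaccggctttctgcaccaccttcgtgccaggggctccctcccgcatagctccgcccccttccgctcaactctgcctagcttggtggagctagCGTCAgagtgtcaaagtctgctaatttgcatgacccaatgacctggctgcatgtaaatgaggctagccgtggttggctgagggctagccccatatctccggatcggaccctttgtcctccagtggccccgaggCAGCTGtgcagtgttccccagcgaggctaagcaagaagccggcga
Hdac5: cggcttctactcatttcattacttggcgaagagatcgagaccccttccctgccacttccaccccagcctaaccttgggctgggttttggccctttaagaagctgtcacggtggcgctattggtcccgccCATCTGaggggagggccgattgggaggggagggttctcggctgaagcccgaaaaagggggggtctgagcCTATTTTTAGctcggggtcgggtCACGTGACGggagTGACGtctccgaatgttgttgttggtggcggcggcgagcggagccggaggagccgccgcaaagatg

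Both rising genes held 1 E-box, with 3 CRE half-sites in the Hdac4 window and 1 in that of Gadd45a. The Hdac5 window held 2 E-boxes, 2 CRE half-sites and a Mef2 site whose first base lay 52 bases before the start, and the CRE half-site at 25 bases before the start overlapped an E-box. The Gadd45g window, with 3 E-boxes, was the only window of the 6 with an Atf4 core, whose first base lay 122 bases before the start. Among 33469 rat promoters of the same length, 72.1% held an E-box, 21.2% a CRE half-site, 3.29% a Mef2 site and 0.795% an Atf4 core. A match describes the letters of the window and is not evidence of binding.

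To place the genes before ageing, their levels at 6 months were compared between muscles on a scaling common to all 4. Hdac4 was at 4.98 ± 0.14 log2 CPM (SD, n = 12) in diaphragm, 5.07 ± 0.26 (n = 12) in soleus, 5.6 ± 0.21 (n = 12) in tibialis anterior and 5.77 ± 0.22 (n = 10) in gastrocnemius. The pair of higher muscles did not differ beyond their spread (adjusted p = 0.396), and neither did the pair of lower ones (adjusted p = 0.651). A difference was called at an adjusted p under 0.05 in limma-voom and a size over 1.5-fold, and Hdac4 was called higher in the gastrocnemius than in the diaphragm (log2 difference 0.79, adjusted p = 6.7e-06), where 37.3% of all genes tested were called. It was also called between tibialis anterior and diaphragm (0.62, adjusted p = 0.00023, 35.1% of all genes) and between soleus and gastrocnemius (-0.71, adjusted p = 4.8e-05).

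Gadd45g set the soleus apart. It stood at 1.45 ± 0.22 log2 CPM (SD, n = 12) there, against 2.62 ± 0.61 (n = 12) in diaphragm, 3.42 ± 0.83 (n = 12) in tibialis anterior and 3.68 ± 0.78 (n = 10) in gastrocnemius. The soleus was called lower than each of the other muscles, by 1.14 against the diaphragm (adjusted p = 0.0002), while the gastrocnemius and tibialis anterior did not differ beyond their spread (adjusted p = 0.244, 17.3% of all genes called). The share of all genes called was 23.9% between soleus and diaphragm, 45.4% between soleus and gastrocnemius and 42.9% between tibialis anterior and soleus. No pair of muscles was called for Hdac5, Hdac9, Gadd45a or Gadd45b at 6 months with this scaling. With total-count scaling the median gene was lower by 0.49 in gastrocnemius than in diaphragm, and all 3 Hdac4 calls above were lost. Its difference was then 0.36 between gastrocnemius and diaphragm (adjusted p = 0.0655), 0.18 between tibialis anterior and diaphragm (adjusted p = 0.357) and -0.30 between soleus and gastrocnemius (adjusted p = 0.114). In the same scaling Hdac9, Gadd45a and Gadd45b were called lower in gastrocnemius than in diaphragm (-0.66, -0.97 and -1.03).

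To ask how the members changed with age, each age was compared with 6 months in each muscle. Hdac4 and Gadd45a rose in all 4 muscles by 27 months. Gadd45g fell in the fast limb muscles and Hdac9 in the tibialis anterior, while Hdac5 and Gadd45b were not called at 27 months in any muscle. At that age 2 of the 6 members were called in the diaphragm, both higher, where 7.52% of all genes were called, 3.27% higher and 4.25% lower. In the gastrocnemius 2 were called higher and 1 lower, against 22.8% of all genes, 15.1% higher and 7.76% lower. For the soleus there were 2 higher, against 15% of all genes, 9.21% higher and 5.78% lower. The tibialis anterior had 2 higher and 2 lower, against 27.6% of all genes, 17.2% higher and 10.4% lower.

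No member was called at 9 months, when 0.108%, 0.143%, 0.123% and 0.00851% of all genes were called in diaphragm, gastrocnemius, soleus and tibialis anterior, or at 12 months (0.532%, 0.885%, 0.353% and 0.196%). At 18 months only Gadd45a was called, in gastrocnemius and tibialis anterior, and 2.25%, 4.32%, 2.84% and 5.45% of all genes were. Between 1 and 3 members were called in each muscle at 21 months (1.68%, 5.81%, 2.61% and 6.47% of all genes) and between 1 and 4 at 24 months (2.68%, 18.8%, 6.51% and 14.5%).

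**Figure D1:**
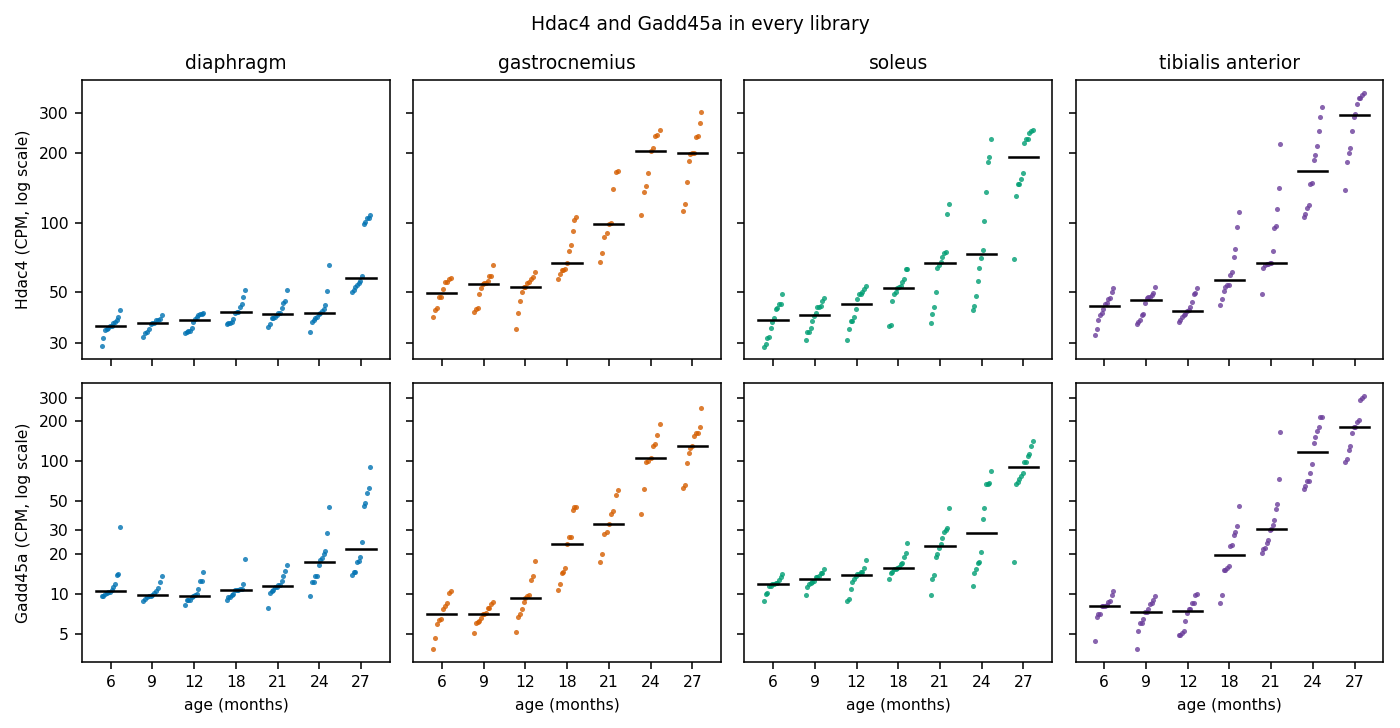
Hdac4 (upper row) and Gadd45a (lower row) in every library of the 4 muscles, in CPM on a log axis scaled within each muscle, against age in months. Points are libraries and black bars group medians. In the tibialis anterior the Gadd45a median was 8.10 at 6 months and 179 at 27 months, and the 12 diaphragm libraries of 27 months fall into 2 sets.

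Hdac4, the deacetylase that denervated fibres accumulate, rose most in the tibialis anterior. Its lowest, median and highest CPM there were 32.4, 43.2 and 52.0 at 6 months, 43.7, 56.5 and 111 at 18 months, and 138, 292 and 366 at 27 months. All 12 libraries of 24 months and all 12 of 27 months lay above every library of 6 months. Against 6 months the log2 change was 0.99 at 21 months (SE 0.16, adjusted p = 9.4e-07), 2.0 at 24 months and 2.64 at 27 months (SE 0.16, adjusted p = 2.7e-24). At 18 months the change of 0.55 passed the adjusted p (0.00387) but not 1.5-fold.

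The gastrocnemius moved at the same ages and then levelled. Hdac4 had a lowest, median and highest CPM of 38.8, 49.5 and 57.2 at 6 months, 67.2, 98.1 and 167 at 21 months, 108, 204 and 252 at 24 months, and 112, 200.2 and 302 at 27 months. From 21 months on, no library overlapped those of 6 months. At 18 months 10 of 11 libraries already lay above every library of 6 months. The log2 change of 0.58 then passed the adjusted p (0.00314) but fell just short of 1.5-fold. The estimated log2 change was 1.09 at 21, 1.89 at 24 and 1.98 at 27 months (SE 0.15, adjusted p = 9.1e-19). Between 24 and 27 months the estimate moved by 0.09 (SE 0.15, adjusted p = 0.772), an interval with 0.548% of all genes called higher.

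In the soleus the rise was spread unevenly over the libraries. At 6 months the lowest, median and highest Hdac4 values were 28.9, 37.6 and 49.1 CPM, and at 24 months they were 41.6, 73.1 and 230.2. At 24 months 4 libraries lay at 136 CPM or more and the other 8 between 41.6 and 101.5. At 27 months the values were 69.3, 193 and 251, with replicate 9 lowest and the next library at 130. The log2 change was 0.77 at 21, 1.22 at 24 and 2.25 at 27 months (SE 0.19, adjusted p = 7.1e-17), and only the 27-month libraries were all above those of 6 months.

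The diaphragm had the smallest Hdac4 change at 27 months and was the last muscle in which a change was called. Hdac4 there had 29.1, 35.7 and 41.6 CPM (lowest, median, highest) at 6 months, 33.5, 40.4 and 65.7 at 24 months, and 50.1, 57.2 and 108 at 27 months. All 12 libraries of 27 months lay above those of 6 months, and they fell into 2 sets, 7 libraries between 50.1 and 58.8 and 5 between 98.9 and 108. The change on the log2 scale was 0.24 at 24 months (not called, adjusted p = 0.107) and 1.00 at 27 months (SE 0.10, adjusted p = 1.1e-13).

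Gadd45a, the growth arrest gene linked to fibre atrophy, had the largest changes of the members. In the tibialis anterior its lowest, median and highest CPM were 4.40, 8.10 and 10.4 at 6 months, 20.2, 31.0 and 166 at 21 months, and 97.6, 179 and 312 at 27 months. No library of 21 months or later overlapped those of 6 months. The library at 166 CPM at 21 months, replicate 7, stood apart from the next at 73.3, and its Hdac4 was at 219.6 CPM against 141 in the next. The log2 change of Gadd45a was 1.31 at 18, 2.21 at 21, 3.85 at 24 and 4.49 at 27 months (SE 0.27, adjusted p = 4.8e-25).

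The gastrocnemius ran close to it. Gadd45a had 3.82, 7.0 and 10.5 CPM (lowest, median, highest) at 6 months, 10.7, 23.8 and 45.2 at 18 months, and 63.2, 129.5 and 251 at 27 months. From 18 months on the libraries did not overlap those of 6 months. Gadd45a changed there by 1.70 on the log2 scale at 18, 2.30 at 21, 3.93 at 24 and 4.23 at 27 months (SE 0.27, adjusted p = 1e-21).

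In the soleus Gadd45a had 8.76, 11.8 and 14.0 CPM at 6 months and 17.2, 90.2 and 141 at 27 months, where replicate 9, the library lowest for Hdac4, was again lowest and the next stood at 66.6. The groups did not overlap, and the log2 change was 0.90 at 21, 1.38 at 24 and 2.82 at 27 months (SE 0.26, adjusted p = 7.9e-16). In the diaphragm the values were 9.53, 10.5 and 31.8 CPM at 6 months and 13.7, 21.7 and 89.4 at 27 months. There the groups overlapped, since 1 library of 6 months stood at 31.8 CPM with the next at 14.0, and 5 of the 12 libraries of 27 months lay above it. Its log2 change was 0.54 at 24 months (not called, adjusted p = 0.117) and 1.25 at 27 months (SE 0.22, adjusted p = 1.6e-06).

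**Figure D2:**
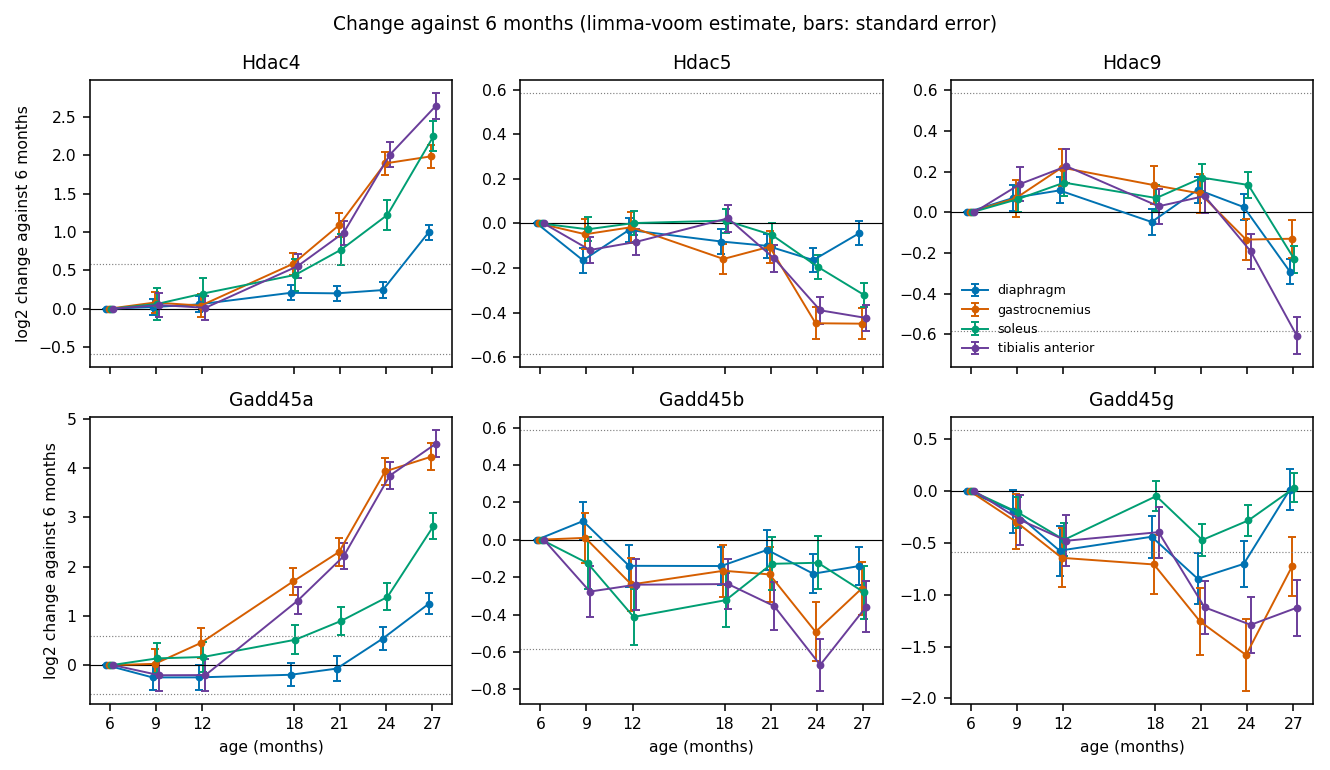
Log2 change against 6 months, estimated by limma-voom, against age in months, with a panel for each of the 6 members, a coloured line for each muscle, standard errors as bars, 1.5-fold marked by dotted lines and a vertical axis that differs between panels. Hdac4 and Gadd45a climb in all muscles, least far in the diaphragm, to 1.00 and 1.25 there, while Gadd45g lies lowest at 24 months in the gastrocnemius (-1.58) and tibialis anterior (-1.29).

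The intervals after 18 months were compared to ask when the rise took place. From 18 to 21 months Gadd45a rose by 0.90 and Gadd45g fell by 0.72 in the tibialis anterior, where 1.97% of all genes were called. From 21 to 24 months Hdac4 rose by 0.80 (adjusted p = 0.0001) and Gadd45a by 1.63 (adjusted p = 1.6e-06) in the gastrocnemius, where 4.22% of all genes were called higher. In the tibialis anterior the same interval gave 1.01 for Hdac4 and 1.63 for Gadd45a (2.8% of all genes higher), and 24 to 27 months added 0.64 and 0.65 (4.17% of all genes higher). From 24 to 27 months the soleus gave 1.02 for Hdac4 and 1.44 for Gadd45a (2.97% of all genes higher). The diaphragm gave 0.75 for Hdac4, 0.71 for Gadd45a and 0.72 for Gadd45g in this interval, in which 0.872% of all genes were called higher. From 21 to 24 months in the soleus, Hdac4 was not called in limma-voom (0.45, adjusted p = 0.148) but was called in edgeR (0.61, adjusted p = 0.0326) and DESeq2 (0.61, adjusted p = 0.0272), and Gadd45a likewise (0.48, adjusted p = 0.236, against 0.72 in both). In limma-voom 0.353% of all genes were called higher in that interval.

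A trend over the 7 ages was fitted with flat, linear and logistic curves, the form being chosen by the Bayesian information criterion. Hdac4 followed a rising logistic curve with its midpoint at 21 months in gastrocnemius, 23.25 in tibialis anterior, 25.5 in diaphragm and 26.25 in soleus. For Gadd45a the midpoints were 21.25 months in tibialis anterior, 24 in gastrocnemius, 24.5 in diaphragm and 27 in soleus, the last at the end of the ages searched. Midpoints were picked from steps of 0.25 months and have no interval, so their order was not tested. With total-count scaling that of Hdac4 in diaphragm was 27. The calls gave another order for Hdac4, from 21 months in soleus and only at 27 in diaphragm. Rising trends were found for 12.2% of all genes in diaphragm, 28.1% in gastrocnemius, 19% in soleus and 33.1% in tibialis anterior.

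Hdac5, a class IIa deacetylase of the same family, moved little and downward. In the tibialis anterior it had 70.0, 80.2 and 87.2 CPM (lowest, median, highest) at 6 months and 45.6, 58.8 and 68.4 at 27 months, and these groups did not overlap. The log2 change of -0.42 (adjusted p = 1.8e-09) and those of -0.45 in the gastrocnemius and -0.32 in the soleus passed the adjusted p but not 1.5-fold. In the diaphragm it was -0.04 (adjusted p = 0.545). With total-count scaling, under which the median gene of the tibialis anterior was 0.34 higher at 27 months, Hdac5 no longer had a falling trend there.

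Hdac9, a Mef2 repressor of the same class, was called in the tibialis anterior alone. It had 19.4, 21.5 and 23.4 CPM (lowest, median, highest) at 6 months and 10.8, 13 and 22.2 at 27 months. Of the 12 libraries of 27 months, 10 lay below every library of 6 months and the other 2 overlapped them. The log2 change was -0.61 (SE 0.09, adjusted p = 5.5e-09), close to the 1.5-fold threshold, and the call was lost when replicate 3, 5, 7 or 11 of 27 months was left out (-0.57 to -0.58). It was also lost in edgeR and DESeq2 (-0.54 in both) and with total-count scaling (-0.27). In the diaphragm, soleus and gastrocnemius the change was -0.29, -0.23 and -0.13.

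Gadd45g, a stress gene that responds quickly to many stimuli, fell in the fast limb muscles. In the tibialis anterior its lowest, median and highest CPM were 3.48, 8.87 and 21.4 at 6 months, 2.39, 3.95 and 5.75 at 24 months, and 1.95, 4.65 and 8.94 at 27 months, with overlap between the ages. The log2 change was -1.12 at 21, -1.29 at 24 and -1.13 at 27 months (SE 0.27, adjusted p = 0.00015). In the gastrocnemius it was -1.26 at 21, -1.58 at 24 and -0.73 at 27 months (SE 0.29, adjusted p = 0.0233). The 27-month call in the gastrocnemius was lost without replicate 4 or replicate 9 of 6 months (-0.61 and -0.59) or without replicate 9 of 27 months (-0.61), and with total-count scaling (-0.44) or sample quality weights (-0.52).

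In the diaphragm Gadd45g was lower at 21 months (-0.85, adjusted p = 0.0168) and 24 months (-0.70, adjusted p = 0.0297) and back at its first level at 27 months (0.01, adjusted p = 0.965). Its lowest, median and highest diaphragm values were 1.71, 7.10 and 11.6 CPM at 27 months and 3.51, 6.60 and 12.7 at 6 months, and the groups overlapped. In the soleus, where it was least abundant, no age was called and the change at 27 months was 0.03. Gadd45b, the remaining gene of the family, was called once, at 24 months in the tibialis anterior (-0.67, SE 0.14, adjusted p = 2.8e-05). Its change at 27 months lay between -0.36 and -0.14 in the 4 muscles.

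**Figure D3:**
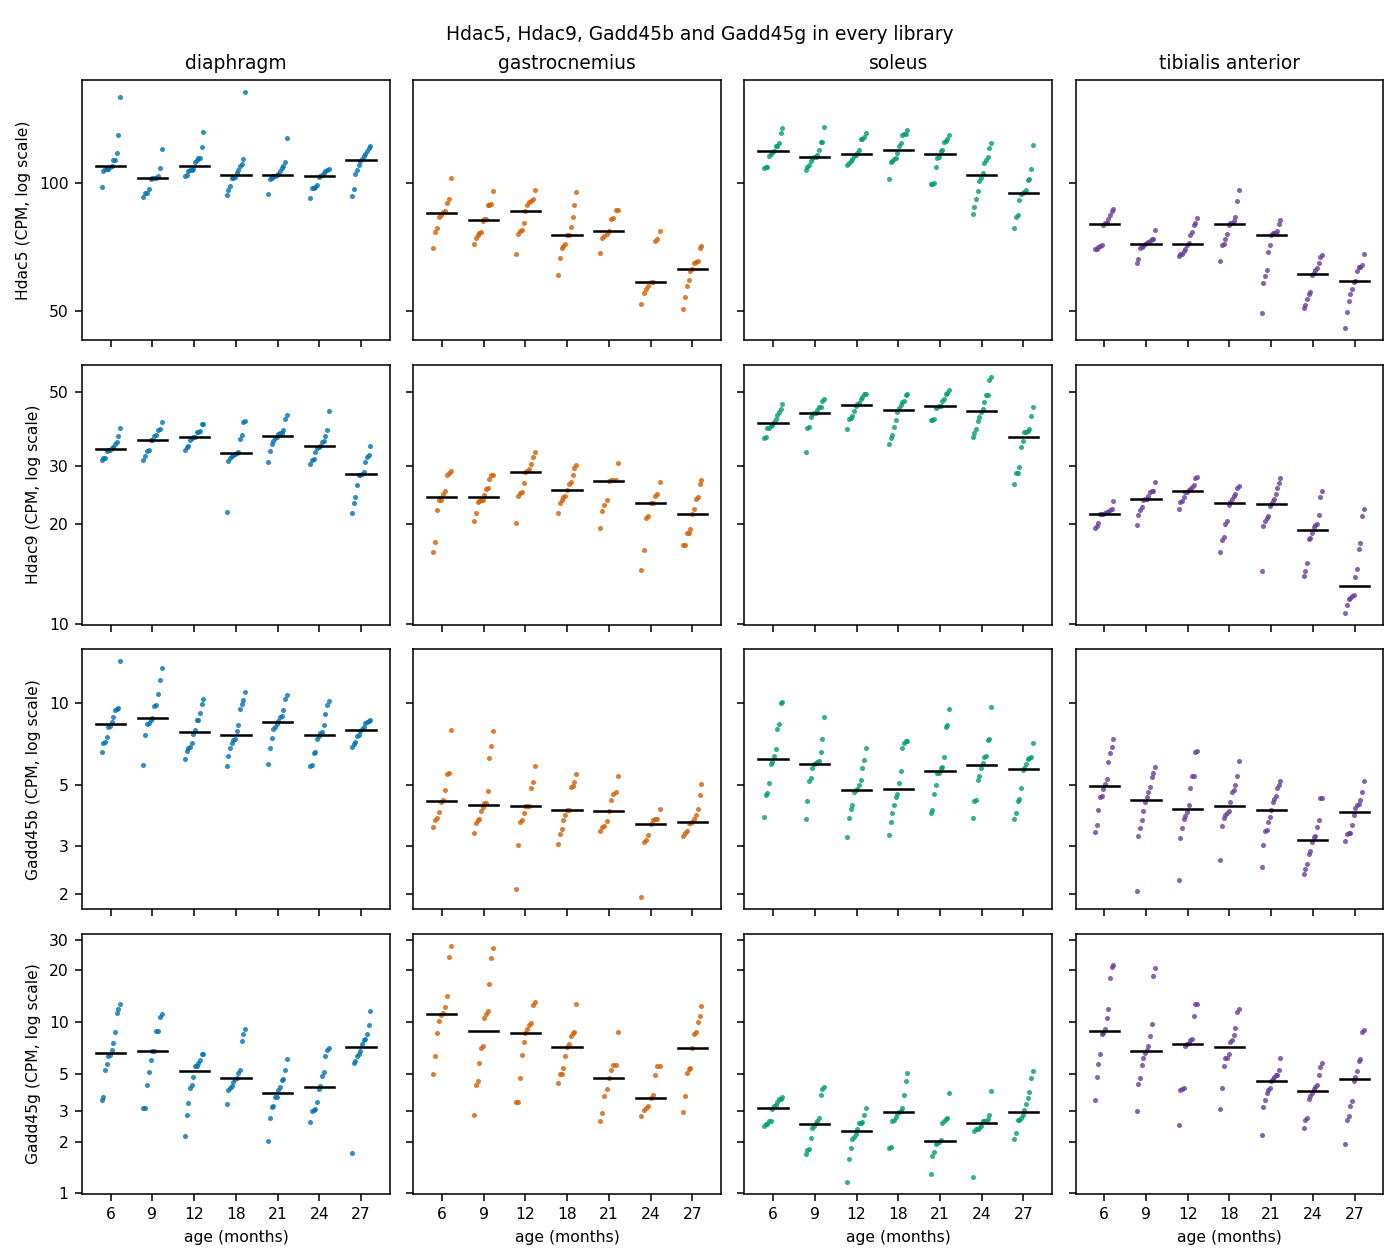
Hdac5, Hdac9, Gadd45b and Gadd45g in every library, in CPM on a log axis scaled within each muscle, against age in months. Points are libraries and black bars group medians. The Hdac9 median of the tibialis anterior was 21.5 at 6 and 13 at 27 months, and the Gadd45g median of the gastrocnemius was 11.1 at 6, 3.61 at 24 and 7.07 at 27 months.

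To ask whether the muscles aged differently, the change from 6 to 27 months was compared between them in a fit of all muscles. The Hdac4 change in the tibialis anterior was 1.60 log2 units larger than in the diaphragm (SE 0.22, adjusted p = 1.1e-10), the soleus change 1.19 larger (adjusted p = 3e-06) and the gastrocnemius change 0.93 larger (adjusted p = 0.00022). Calls made up 20.3%, 11.9% and 21.6% of all genes in these 3 contrasts. Among the limb muscles, the tibialis anterior exceeded the gastrocnemius by 0.66 (adjusted p = 0.0186, 7.32% of all genes called), a difference that was 0.51 and not called with sample quality weights. The soleus differed from neither limb muscle by a called amount (0.25 above the gastrocnemius, SE 0.23, and 0.41 below the tibialis anterior, SE 0.22).

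Gadd45a separated the muscles in another order. Its change was 3.20 larger in tibialis anterior than in diaphragm (SE 0.36, adjusted p = 4.1e-15), 2.93 larger in gastrocnemius and 1.51 larger in soleus. The soleus change fell short of that of the gastrocnemius by 1.42 (SE 0.38, adjusted p = 0.00106, 14.5% of all genes called) and that of the tibialis anterior exceeded it by 1.69 (SE 0.36, adjusted p = 2.6e-05, 15.8% of all genes called). The tibialis anterior and gastrocnemius changes differed by 0.27 (SE 0.39, adjusted p = 0.666). For Gadd45g the tibialis anterior change was 1.18 lower than that of the diaphragm (adjusted p = 0.00131) and 1.15 lower than that of the soleus (adjusted p = 0.0138). The gastrocnemius change was 0.76 lower than that of the diaphragm (adjusted p = 0.0347).

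The genes known to respond to denervation rose with them. Of 12 such genes, 8 were called higher at 27 months in the diaphragm and 10 in each limb muscle, and none was called lower. The median log2 change of the 12 was 3.79 in tibialis anterior, 3.02 in gastrocnemius, 1.77 in soleus and 0.95 in diaphragm, beside medians of all genes between 0.0026 and 0.04. Their summed level ran from 532 to 646 CPM at 6 months and from 1204 to 3216 at 27 months in the tibialis anterior, and from 475 to 573 and from 546 to 1290 in the diaphragm.

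Large changes were those of the acetylcholine receptor subunits Chrng, Chrnd and Chrna1. The subunit Chrnb1 moved less. It rose by 0.54 in the diaphragm (not called), 0.62 in gastrocnemius, 0.91 in soleus and 1.06 in tibialis anterior. Chrng, the fetal subunit, rose by 3.68 in the diaphragm (SE 0.52) and 7.16 in the tibialis anterior (SE 1.05). Chrng had a median of 0.219 CPM in the tibialis anterior at 6 months, so the size of that change rests on few counts. The subunit Chrnd rose by 1.83 in the diaphragm, Chrna1 by 4.82 in the gastrocnemius and 5.35 in the tibialis anterior, and the myogenic factor Myod1 by 2.88 in the soleus. The ubiquitin ligases of atrophy were not called in any muscle, with log2 changes between -0.24 and 0.11 for Fbxo32 and between 0.31 and 0.49 for Trim63. Trim63 passed the adjusted p in all 4 muscles (0.00456, 3.1e-05, 0.00638 and 1e-05 in diaphragm, gastrocnemius, soleus and tibialis anterior, limma-voom) and missed only the 1.5-fold size.

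**Figure D4:**
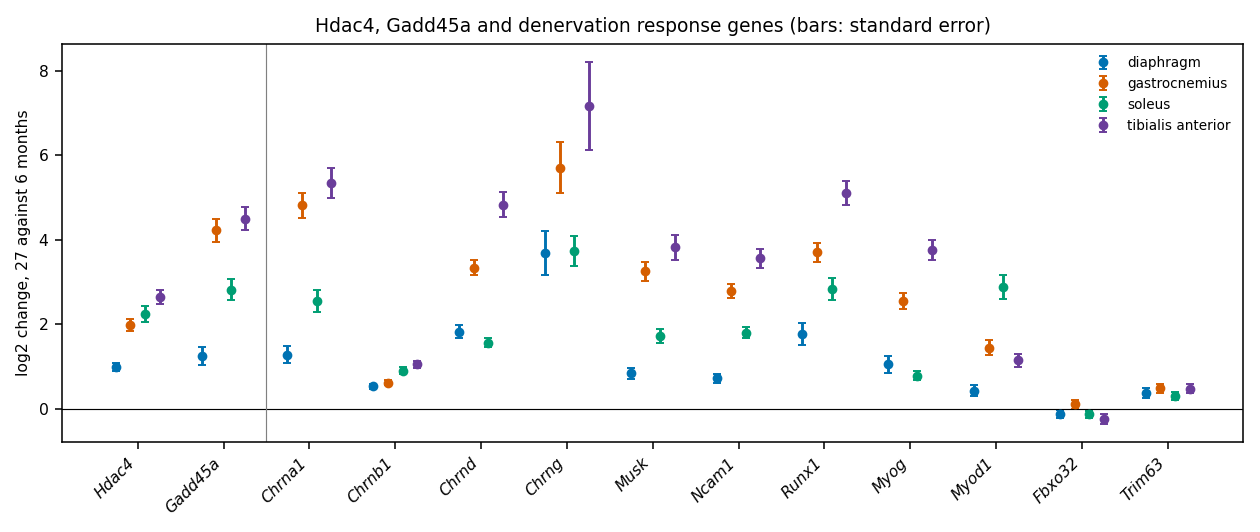
Log2 change from 6 to 27 months of Hdac4, Gadd45a and genes of the denervation response in the 4 muscles (limma-voom estimates, bars are standard errors). In the gastrocnemius and tibialis anterior Gadd45a lies at 4.23 and 4.49, while Fbxo32 and Trim63 stay between -0.24 and 0.49 in every muscle.

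The deacetylases outside the class did not move past the threshold. The log2 changes of the 6 other histone deacetylase genes tested lay between -0.30 (Hdac8 in the diaphragm) and 0.42 (Hdac1 in the gastrocnemius, adjusted p = 2.3e-07), all under 1.5-fold. Genes known to act with class IIa deacetylases (Mef2 factors, corepressors and kinases) were also counted. Of these, 0 of 13 were called in the diaphragm and 2 of 13 or 12 in each limb muscle. Shares of all genes called at 27 months were 7.52%, 22.8%, 15% and 27.6% in diaphragm, gastrocnemius, soleus and tibialis anterior. The list was near or below these shares and did not stand out by its count. The same shares stand beside the lists below. Sik1, a kinase that keeps class IIa deacetylases in the cytoplasm, rose by 2.12 in tibialis anterior, 1.60 in gastrocnemius and 1.46 in soleus, and its change in diaphragm, 0.50, was not called. Camk2a, a calcium-dependent kinase of the same enzymes, fell by 0.63 in gastrocnemius and 0.81 in tibialis anterior, and its relative Camk2d rose by 0.63 in soleus.

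Developmental regulators that work with Dach proteins were tested for 6 genes. In the gastrocnemius 2 were called lower and 1 higher, among them Six2, which fell by 1.25, and Eya4, which rose by 0.59. The tibialis anterior had 1 called lower. None was called in the diaphragm or soleus, and their medians lay between -0.29 and 0.20 in the 4 muscles.

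Among 13 or 14 genes tested that act on or below Gadd45 proteins, Cdkn1a, the cell cycle inhibitor p21, rose in every muscle. Its log2 change was 5.33 in tibialis anterior (SE 0.35), 4.76 in soleus, 4.44 in gastrocnemius and 1.60 in diaphragm. Atf4, the factor known to induce Gadd45a in starved muscle, fell by 1.22 in tibialis anterior, 0.98 in gastrocnemius and 0.59 in soleus, and its change in diaphragm was -0.24. The cell cycle genes Cdk1 (1.08 and 2.02) and Ccnb1 (0.96 and 1.08) rose in the gastrocnemius and tibialis anterior. At 6 months Cdk1 had a mean of -2.15 and -3.18 log2 CPM and Ccnb1 of -1.06 and -1.10 in these muscles, so the sizes rest on few counts. Mapk14, the p38 kinase downstream of Gadd45 proteins, fell by 0.75 and 0.63 in these muscles, and its activator Map2k6 fell by 0.99 in the tibialis anterior. The median of the list stayed between -0.02 and 0.13.

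The group means of Hdac4 and Gadd45a followed each other with r = 0.97 over the 28 muscle and age groups, each muscle being centred on its own mean. Libraries of an age share their day of collection, and the value is a description. Over the same groups r was -0.88 between Hdac4 and Hdac5 and -0.79 between Hdac4 and Hdac9. Of 10405 genes, those most like Hdac4 were Aif1l (0.991), Lgals1 (0.988), Map3k14 (0.986), Mgst2 (0.985) and Cdkn1a (0.984). Those most unlike it were Lgalsl (-0.983), Tnks2 (-0.981) and Araf (-0.974).

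Among the genes most like Gadd45a were Ncam1 (0.992), Musk (0.991), Chrna1 (0.990) and Runx1 (0.988). Each of these 4 belongs to the 12 denervation response genes, among them the adhesion molecule Ncam1 and the synapse kinase Musk. The most unlike were Lgalsl (-0.967), Serpine2 (-0.966) and Mtmr10 (-0.964). Such likeness was common, with 437 genes above 0.9 for Hdac4 and 470 for Gadd45a.

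Whether libraries of the same age also varied together was asked at 27 months. In the diaphragm the libraries fell into 2 sets, in which Gadd45a was at 13.7 to 24.5 CPM in the 7 with lower Hdac4 and at 45.7 to 89.4 in the 5 with higher Hdac4, and Myog, the gene of myogenin, at 14.8 to 27.0 and 49.4 to 72.9. No r was therefore taken over all 12. Within the set of 7, r was 0.45 (rho 0.46, exact permutation p = 0.341 and 0.302, adjusted p = 0.39), and the set of 5 was too small to test.

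In the gastrocnemius Hdac4 and Gadd45a correlated with r = 0.72 over 11 libraries (permutation adjusted p = 0.0327; rho 0.63, adjusted p = 0.0884). Without the 2 libraries farthest from the median r was 0.22. In the soleus r was 0.84 over 12 libraries (permutation adjusted p = 0.0262; rho 0.71, adjusted p = 0.0738), and 0.49 without 2 libraries, replicate 9 being the lowest for both genes. In the tibialis anterior r was 0.56 (permutation adjusted p = 0.0743; rho 0.48, adjusted p = 0.195) and 0.16 without 2 libraries. The called relations of gastrocnemius and soleus were thus weaker without the libraries outermost for Hdac4. Leaving these out also narrows the range of Hdac4, which lowers r by itself. Whether the relations rested on these libraries alone can therefore not be told.

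Hdac4 with Myog gave r = 0.81 in gastrocnemius (permutation adjusted p = 0.0262), 0.72 in tibialis anterior (permutation adjusted p = 0.0262) and 0.68 in soleus (permutation adjusted p = 0.051). The values of rho were 0.71, 0.61 and 0.36, with adjusted p of 0.0738, 0.0884 and 0.324. Without the 2 farthest libraries r was 0.53, 0.54 and 0.36. In the diaphragm set of 7, r was -0.31 (rho 0.11, exact permutation p = 0.5 and 0.84, and r = 0.43 without the 2 farthest libraries). In all 8 relations were computed, with two-sided permutation tests adjusted together.

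**Figure D5:**
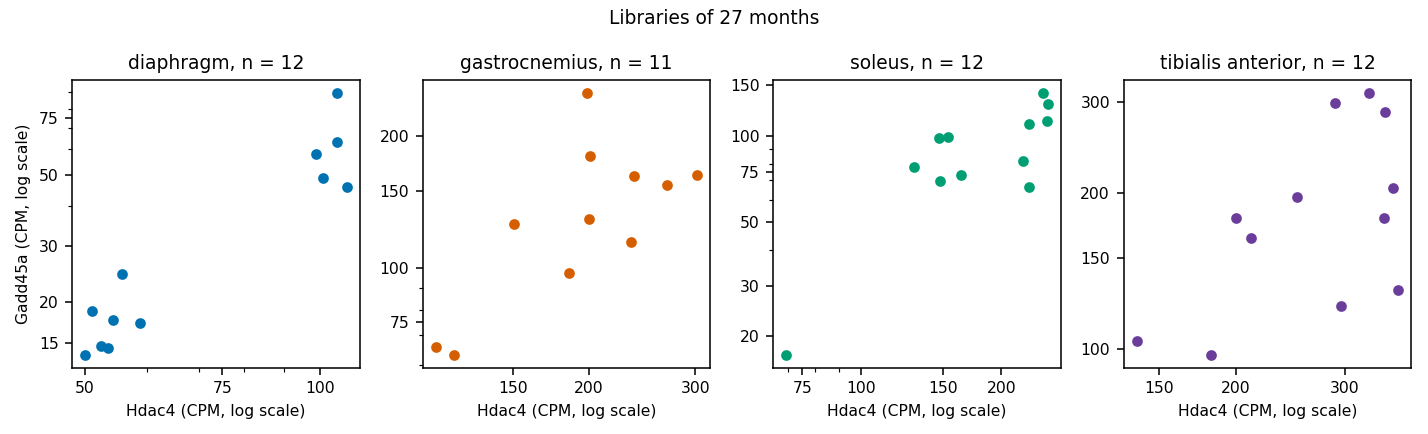
Hdac4 against Gadd45a in each library of 27 months, in CPM on log axes, with a panel and its own axis range for each muscle. The diaphragm libraries form 2 sets, 7 with Hdac4 up to 58.8 and 5 from 98.9, and the soleus has a single library at 69.3 and 17.2.

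Other genes moved at the same ages, and their part in the changes above was not tested. All 5 macrophage markers were called higher at 27 months in gastrocnemius and in tibialis anterior, 1 in soleus and 0 in diaphragm, and their summed level ranged over 29.8 to 46.8 CPM at 6 months and 63.9 to 125 at 27 months in tibialis anterior, and over 101 to 174 and 147 to 225 in diaphragm. Of the adipocyte markers 4 of 5 were called higher in each limb muscle and 0 of 5 in the diaphragm, and in the tibialis anterior their sum ranged over 21.6 to 39.6 CPM at 6 months and 45.4 to 66.6 at 27 months. T cell markers were called higher in 2 of 5 in diaphragm, 2 of 3 in gastrocnemius and soleus and 3 of 3 in tibialis anterior, with sums there of 3.38 to 5.07 CPM at 6 months and 5.43 to 13.9 at 27 months.

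Schwann cell markers were called higher in 0, 1, 1 and 2 of 5 (diaphragm, gastrocnemius, soleus, tibialis anterior) and satellite cell markers in 0, 2, 2 and 1 of 5. Of the same lists 1 of 5 Schwann cell markers was called lower in gastrocnemius and 1 of 5 satellite cell markers, Cdh15, in tibialis anterior (-0.60). Fibroblast markers were called lower in 3, 1, 1 and 0 of 5 and endothelial markers in 0, 1, 1 and 1 of 5. The muscle fibre markers, whose sum was 194800 to 219400 CPM in the tibialis anterior at 6 months, lay between 88370 and 197400 there at 27 months, with 3 of 9 called lower. In gastrocnemius 2 of these 9 were called lower. In soleus 4 were called higher (Myh1, Myh4, Tnnt3 and Myl1, by 3.22, 3.08, 2.58 and 1.09), and 1 in diaphragm (Myh4, by 1.38). At 6 months the soleus medians of Myh1, Myh4, Tnnt3 and Myl1 were 66.2, 9.38, 89.0 and 2126 CPM. The summed level of the 9 markers in the soleus had a median of 109500 CPM at 6 months and 87640 at 27 months.

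Genes that follow handling and time of day also moved. Immediate early genes were called higher in 4 of 9 in each limb muscle and 0 of 9 in the diaphragm, and 1 of 9 was called lower in all but the soleus. Nr4a1, an early-induced nuclear receptor, fell by 1.22 in tibialis anterior and 0.83 in gastrocnemius, and Fosb fell by 0.96 in diaphragm. Junb, a transcription factor of this group, rose by 1.91 in tibialis anterior, 1.72 in gastrocnemius and 1.41 in soleus, and Atf3, a stress factor, by 1.27, 1.80 and 1.5. Of 10 clock genes 8 were called in diaphragm, 7 in gastrocnemius, 8 in soleus and 9 in tibialis anterior, and Arntl fell in each, by 2.65, 2.04, 2.07 and 2.16. Dbp, a clock output gene, rose by 2.49 in the diaphragm and 2.39 in the tibialis anterior.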

How the data were processed

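RNA of 4 muscles was sequenced as read pairs from stranded libraries after removal of ribosomal RNA. The authors deposited raw counts per gene for each library, made with the ArrayStudio pipeline on rat genome B6.0 and a gene model based on RefSeq. Whether strand was used in counting is not given in the sources used here. Lines of a symbol were summed. Genes passed filterByExpr (minimum count 10, minimum total 15) in each muscle, with all 6 members passing in all 4, and counts were scaled by TMM (edgeR 4.0.16). All ages of a muscle entered a limma-voom model (version 3.58.1 under R 4.3.3), tested two-sided with Benjamini-Hochberg adjustment over all genes tested. A call needed an adjusted p under 0.05 and over 1.5-fold. All adjusted p-values other than those of correlations come from this tool unless edgeR or DESeq2 (1.42.0) is named. Contrasts between muscles came from a fit of all 4. Levels are CPM, with a prior count of 0.5 on the log2 scale. Trends needed a BIC over 6 below the flat form, and logistic ones over 2 below linear. Permutation tests (scipy 1.17.1) used 100000 resamples, or all orders with fewer than 10 libraries. The models were tested on simulated data with independent libraries, which does not cover animals shared between muscles. The outcome is not reported here.

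Groups were read from the labels, with 17.6 to 85.3 M counts per library. The study's methods give as many animals as libraries in each muscle and age, so p-values within a muscle measure the spread between animals killed on the same day. In the contrasts between muscles every library counted as independent. Libraries of different muscles may share an animal, which those p-values do not take into account. The members and gene lists were chosen with earlier results of these data known. The rule for naming listed genes was the 3 called genes of largest change at 27 months in each list. Lists of cell markers are given as counts, some genes that the rule picks are left out for length, and genes such as Fbxo32, Trim63, Hdac1, Hdac8 and Myog were added after their values were seen. For likeness, the 5 genes of highest and 3 of lowest r were named. Replicate numbers are shared between muscles. Same-numbered libraries deviated together with a median r of 0.04 to 0.20 over pairs of muscles. For libraries of other numbers the median r was -0.03 to -0.01. The labels do not say that a number is an animal, so the numbers were not taken as animals. Some listed genes are not reported here by name.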

Additional observations from a re-analysis of the deposited data

Results flagged for a closer look

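In groups of 9 or 10 libraries, 18 sets of member values were checked for a library far from the rest, a check that chance meets in about 1 of 20 sets. It marked 1, Gadd45b in replicate 1 of the gastrocnemius at 24 months, the lowest at 0.965 log2 CPM with the nearest other library at 1.64.

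The change from 6 to 27 months differed between muscles, by limma-voom contrasts of the changes, for 3 members in 12 cases. All 6 members were tested in 6 pairs of muscles, and 7.32% to 21.6% of all genes were called in these contrasts. Hdac4 changed more than in the diaphragm by 1.60 in the tibialis anterior, 1.19 in the soleus and 0.935 in the gastrocnemius, and by 0.664 more in the tibialis anterior than in the gastrocnemius. Gadd45a exceeded the diaphragm by 3.20, 1.51 and 2.93 in the same order, the soleus minus gastrocnemius difference was -1.42, and the tibialis anterior exceeded the soleus by 1.69. For Gadd45g the differences were -0.765 (gastrocnemius minus diaphragm), -1.18 (tibialis anterior minus diaphragm) and -1.15 (tibialis anterior minus soleus). The gastrocnemius minus diaphragm difference of Gadd45g was not called with total-count scaling (-0.48) or sample quality weights (-0.62).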

How the results depend on the processing

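The rise of Hdac4 and Gadd45a at 27 months was called in every muscle under each scaling, filter and tool tried, except that Hdac4 in the diaphragm missed a 2-fold threshold, which left 1 member called there. With a 2-fold threshold the calls at 9 to 24 months went from 2 to 0 in diaphragm and from 4 to 2 in soleus, and those between successive ages after 18 months from 3 to 0 in diaphragm, to 1 in gastrocnemius and from 6 to 2 in tibialis anterior. With Bonferroni adjustment the calls at 9 to 24 months were 0 in diaphragm, 2 in soleus and 4 in tibialis anterior, and those between successive ages 1 in diaphragm and 2 in tibialis anterior. In the soleus edgeR and DESeq2 each gave 4 calls between successive ages against 2 in limma-voom. The cause was not tested in any of these cases beyond the stricter threshold itself. Shares of all genes called under the other settings of this section are not reported here. The counts of members were not compared with them.

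Members whose change differed between muscles numbered 1 for gastrocnemius and diaphragm with Bonferroni adjustment or 2-fold, 1 for soleus and diaphragm with Bonferroni, 2 with edgeR and 0 with Bonferroni for soleus and gastrocnemius, 0 with quality weights, Bonferroni or 2-fold for tibialis anterior and gastrocnemius, and 1 with Bonferroni for tibialis anterior and soleus. For levels at 6 months, total-count scaling gave 4 members for gastrocnemius and diaphragm, 4 for tibialis anterior and diaphragm and 3 for tibialis anterior and soleus, where RLE size factors and quality weights gave 2. Bonferroni gave 0 for soleus and diaphragm, 0 for tibialis anterior and diaphragm and 1 for soleus and gastrocnemius, and 2-fold gave 1 for gastrocnemius and diaphragm, 0 for tibialis anterior and diaphragm and 1 for soleus and gastrocnemius.

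With total-count scaling r of Hdac4 and Gadd45a was -0.0592 in diaphragm set and 0.690 in tibialis anterior (permutation adjusted p = 0.0207), and r of Hdac4 and Myog 0.738 in soleus (permutation adjusted p = 0.0207). Signs turned for 20 values of single genes, none of them called. Total-count scaling turned the 27-month change in the gastrocnemius of Hdac9 (0.15) and Gadd45b (0.0148), the difference in change of Gadd45b between gastrocnemius and diaphragm (0.12), tibialis anterior and diaphragm (0.0610) and tibialis anterior and soleus (0.10), of Gadd45g between soleus and diaphragm (0.13), of Hdac5 between soleus and gastrocnemius (-0.0059) and tibialis anterior and soleus (0.0723), and the Gadd45b level between tibialis anterior and soleus (-0.41, with -0.0136 under RLE and -0.0113 under edgeR). Quality weights turned Hdac5 in the diaphragm (0.0348), the differences of Hdac9 (-0.0422, gastrocnemius and diaphragm, and 0.0830, soleus and gastrocnemius), Gadd45b (0.0610, soleus and gastrocnemius) and Hdac5 (-0.0031, tibialis anterior and gastrocnemius), and the Gadd45a level of soleus and diaphragm (0.0039). Gadd45g in diaphragm at 27 months was -0.0552 in edgeR and -0.0516 in DESeq2, and its soleus and diaphragm difference 0.0811 in edgeR.

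Leaving out each library of 6 or 27 months in turn, an alternative chosen after seeing the data, gave 2 to 2 members called at 27 months in diaphragm and in soleus, 2 to 3 in gastrocnemius and 3 to 4 in tibialis anterior. With the replicate number as a block, 2, 3, 2 and 4 members were called at 27 months in diaphragm, gastrocnemius, soleus and tibialis anterior. Of all counts of calls the block changed 1, that between successive ages in the gastrocnemius, from 2 to 3. Within a muscle the block joined libraries of the same number at different ages, which are separate animals. Its counts there cannot tell whether animals were shared between muscles. Only the fit of all 4 muscles took age and replicate number together as the block. The numbers are shared between muscles. The library of the same number correlated best for 13 of 72 (diaphragm and gastrocnemius) to 44 of 84 (soleus and tibialis anterior). That is a hint from the data and not from the design. Correlations with Dach2 were not run. Hdac4 with Myog was taken instead, and the diaphragm correlation was kept to the larger set of libraries, both chosen after seeing the data. DESeq2 was not run across muscles.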
